A study of Mus musculus with 24 samples.

Results

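Fat cells release stored fat by lipolysis, and a small set of surface receptors turns that release up or down. Described here are 9 such receptor genes, chosen by name from the 39017 genes of the count matrix, and all 9 were found. They encode the β3- and β1-adrenergic receptors (Adrb3, Adrb1), the α2A-adrenergic receptor (Adra2a), the natriuretic peptide receptors (Npr1, Npr2, Npr3), the lactate receptor (Hcar1), the prostaglandin E2 receptor EP3 (Ptger3) and the adenosine A1 receptor (Adora1). RNA was measured by ribosomal RNA-depleted sequencing of flash-frozen subcutaneous fat of the 4th mammary gland from C57BL/6 mice on a Chow or an HFD diet, described by the submitters as lean and obese. From each diet there was fat of mice labelled no-tumor, fat contralateral to a breast tumor and peritumoral fat, with 4 libraries in each of the 6 groups and 24 in all. The labels give no genetic change, drug, age, sex or time on diet, do not name the tumor, and do not say whether the libraries of a group came from separate mice, so p-values measure the spread between libraries, which may be technical. Contralateral and peritumoral libraries of a diet may also share mice, which the labels do not state.

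The receptors act through second messengers. Adrb3 and Adrb1 bind noradrenaline, couple to the stimulatory G protein and raise cyclic AMP, which activates protein kinase A and, through it, the lipases of the fat droplet. Adra2a, Hcar1, Ptger3 and Adora1 couple to inhibitory G proteins and lower cyclic AMP. Npr1 and Npr2 are guanylyl cyclases that make cyclic GMP when natriuretic peptides bind, whereas Npr3 has no cyclase domain, takes the peptides up and clears them. In fat, catecholamines and natriuretic peptides are the classic stimuli of lipolysis, and lactate, prostaglandin E2 and adenosine are known as local brakes.

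Npr3, Ptger3 and Adora1 were the receptor genes with higher counts on HFD (values below), and the sequence in front of their RefSeq starts is shown because these 3 moved in the same direction. RefSeq (GRCm38.p6, the mm10 build) gave a start for 8 of the 9 genes, Adrb3 being the one without. Each stretch is written 5′ to 3′ on the gene's strand, with GC boxes (GGGCGG or its complement CCGCCC) or the cyclic AMP response element core (TGACG) in capitals. For Ptger3 these are 190 bases before the outermost start of the RefSeq gene, at chr3:157566626-157566815 on the plus strand. The Npr3 window lies inside the span of the longer RefSeq gene, so only 30 bases around its TGACG are given, at chr15:11907404-11907433 on the minus strand. Adora1 is given as 250 bases at chr1:134235458-134235707 on the minus strand.
Npr3: tggagcacacacTGACGcccagccaaatga
Ptger3: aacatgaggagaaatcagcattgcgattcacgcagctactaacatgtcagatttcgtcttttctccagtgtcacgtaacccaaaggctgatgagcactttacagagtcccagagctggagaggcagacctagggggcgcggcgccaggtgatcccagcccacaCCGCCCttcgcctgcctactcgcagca
Adora1: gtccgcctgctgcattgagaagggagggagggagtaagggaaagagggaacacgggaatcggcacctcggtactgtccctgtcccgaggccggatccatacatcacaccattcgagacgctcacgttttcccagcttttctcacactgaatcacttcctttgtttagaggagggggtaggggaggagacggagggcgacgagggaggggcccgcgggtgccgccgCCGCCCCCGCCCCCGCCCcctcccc

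The 250 bases before the Npr3 start held 1 TGACG, 50 bases before the start, and no GC box, and 38.8% of these bases were G or C. Ptger3 and Adora1 each had 3 GC boxes in their 250 bases, at 62.0% and 64.4% G or C, although 2 of those of Ptger3 lie beyond the printed stretch. Searched on both strands, TGACG was present in 17.8% and GGGCGG in 32.7% of all 32851 RefSeq windows of this length, whose median G or C content was 52.4%. The other 3 motifs searched, the TATA box (TATAAA), the nuclear receptor half-site (AGGTCA) and the E-box (CACGTG), were not in the windows of these 3 genes. The start of Npr3 used by RefSeq lies 1697 bases upstream of the start in the deposited gene model, so the 2 annotations differ for this gene.

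The receptor genes spanned more than 2 orders of magnitude in level. Per kilobase of exon, the mean over the 24 libraries was 147 RPKM for Npr3, 44.4 for Adrb3, 17.9 for Ptger3 and 15.1 for Hcar1. Adora1, Npr1 and Npr2 lay close together at 11.22, 11.1 and 11.02 RPKM. Adrb1 averaged 1.79 RPKM and Adra2a 0.516 RPKM. Adra2a rested on 15 to 48 counts per library and Adrb1 on 31 to 103, so their values are the least precise, whereas Npr3 had 3094 to 35476 counts. All 9 passed the filter on low counts in each comparison. In the levels below, CPM is the gene's count relative to its library's total after TMM scaling over the 24 libraries.

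**Figure D1:**
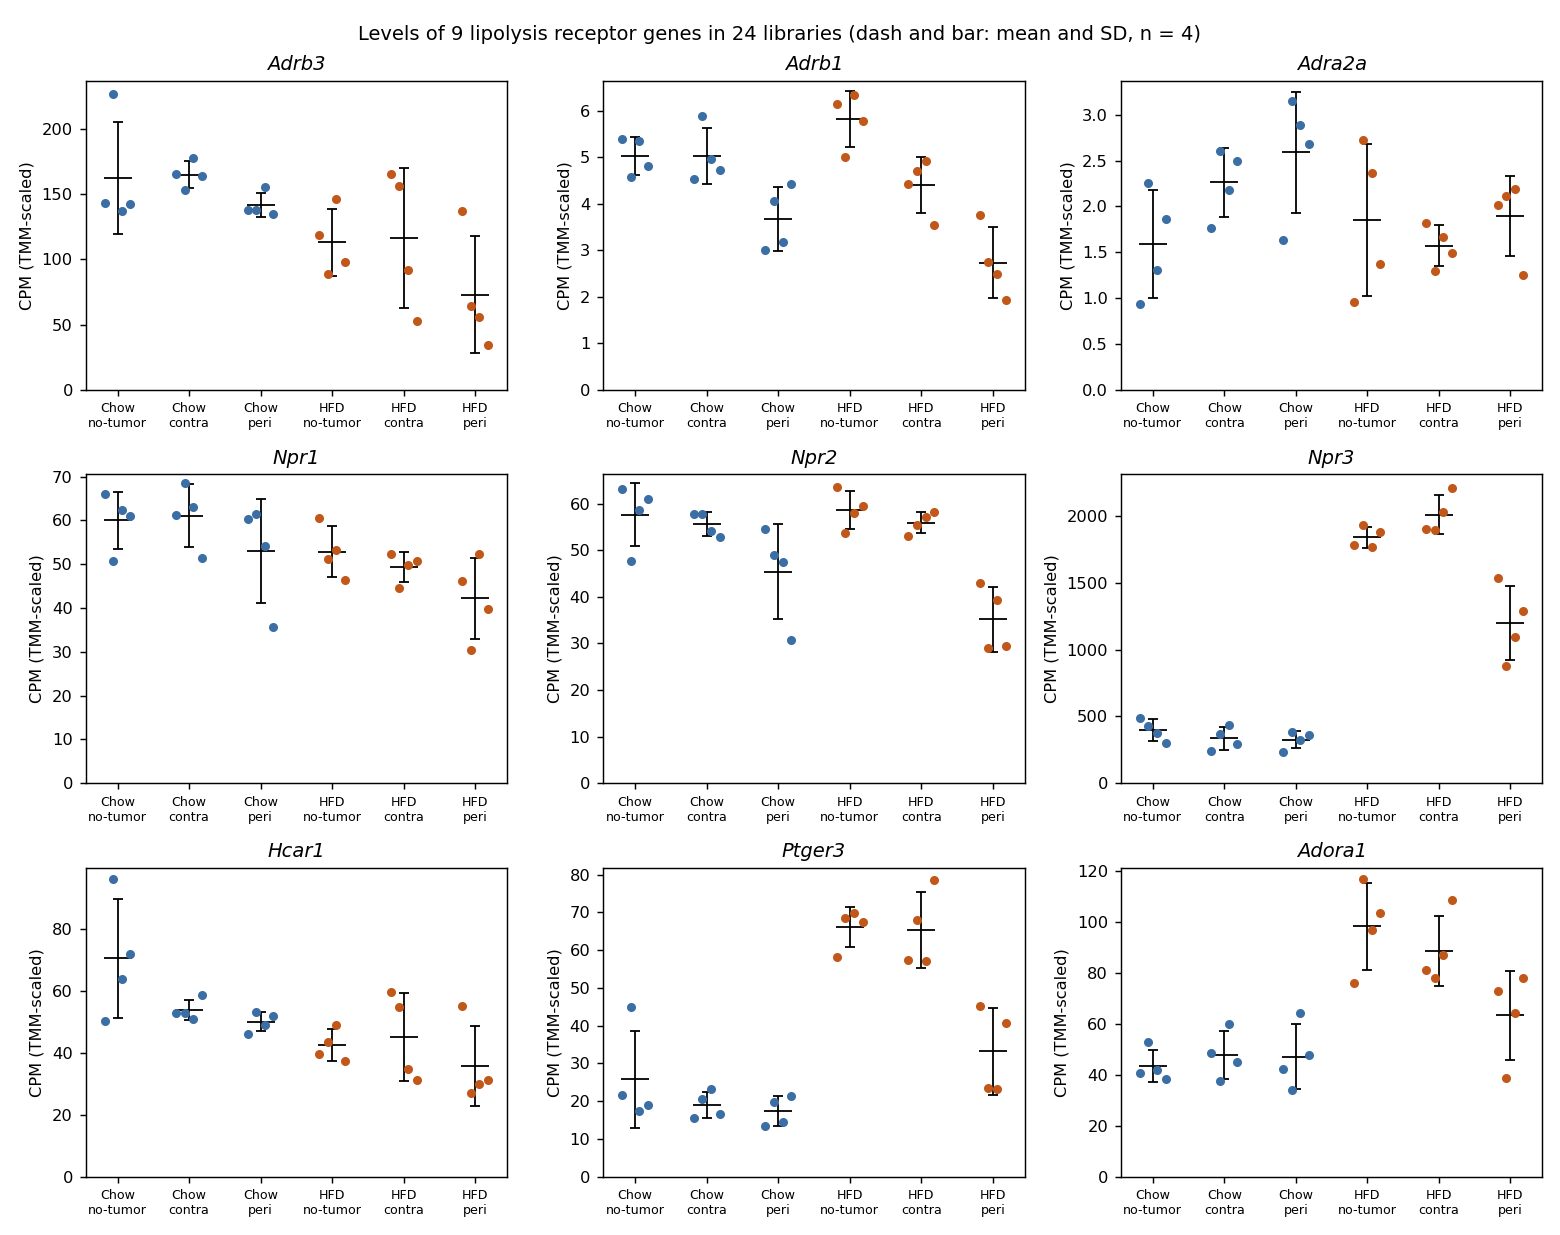
CPM of each receptor gene (vertical axis, from 0) in the 6 groups (horizontal axis), 1 point per library, with the mean and SD of 4 libraries as dash and bar. The HFD points of Npr3 lie between 879 and 2213 CPM, above all Chow points, which end at 491 CPM.

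Diet was the comparison with the largest receptor differences. In no-tumor fat 4 of 9 receptor genes passed the test (edgeR quasi-likelihood, Benjamini-Hochberg adjusted p below 0.05 over all genes), where 24.9% of the 15827 genes tested passed. Npr3, Ptger3 and Adora1 rose and Hcar1 fell, and these 4 of 9 were also the ones whose libraries did not overlap between diets, which held for 27.5% of all genes. In contralateral fat 5 of 9 passed against 49.3% of all genes, with Npr3, Ptger3 and Adora1 higher and Npr1 and Adra2a lower on HFD, and 3 of 9 did not overlap against 46.3% of all genes. In peritumoral fat 2 of 9 passed against 33.6% of all genes, and both, Npr3 and Ptger3, were higher on HFD and did not overlap, as did 33.9% of all genes. As a share of 9 genes, the count was above the background in no-tumor fat, close to it in contralateral fat and below it in peritumoral fat, and nothing particular to the receptors is read from it.

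**Figure D2:**
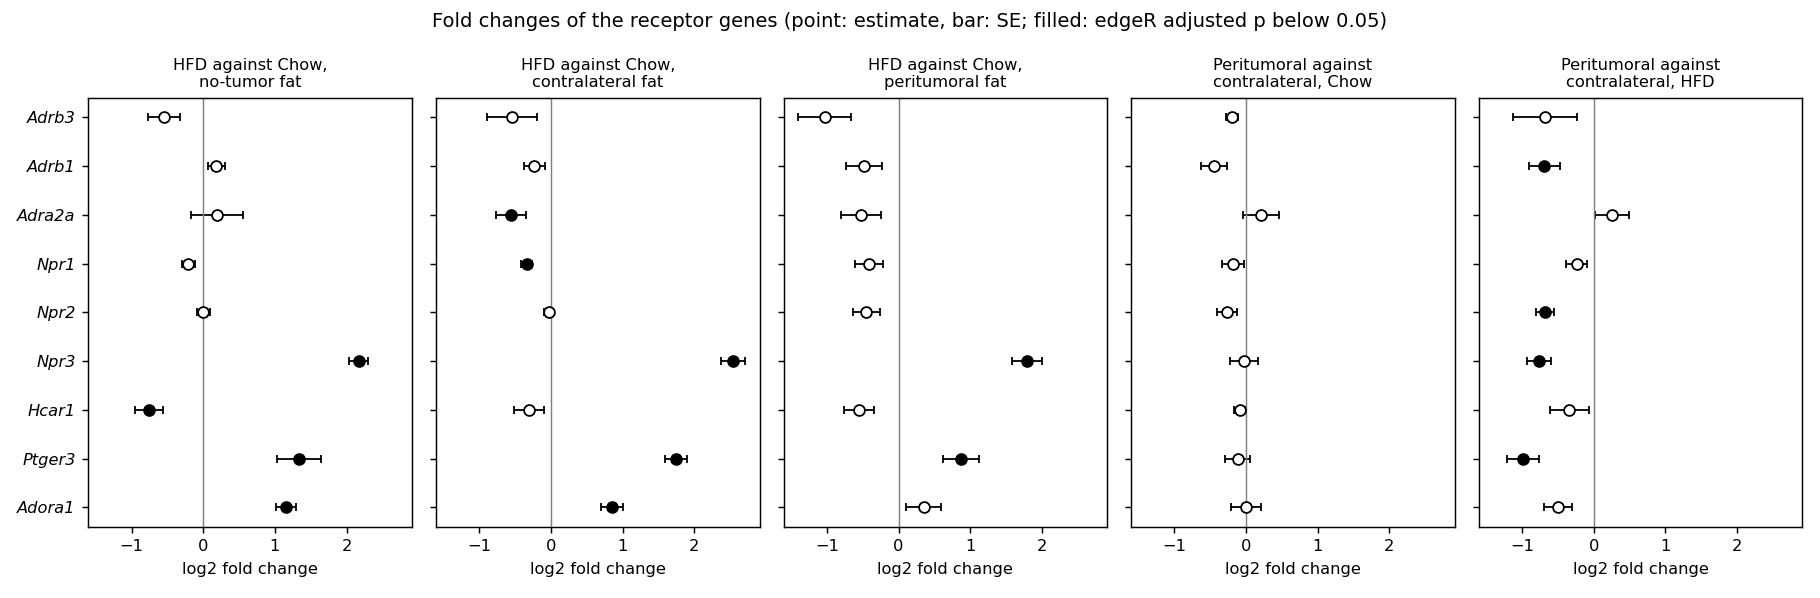
Log2 fold changes (horizontal axis) with their SE for the 9 receptor genes (vertical axis) in 5 comparisons, filled where the edgeR adjusted p was below 0.05. Npr3 stands at 2.17, 2.54 and 1.80 in the 3 diet comparisons, the point farthest to the right in each.

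Npr3, the clearance receptor, had the highest level and the largest diet difference of the 9. In no-tumor fat its level was 491, 430, 377 and 302 CPM in the Chow libraries and 1784, 1935, 1768 and 1882 CPM in the HFD libraries. In contralateral fat it was 245, 372, 439 and 292 CPM on Chow and 1902, 1900, 2034 and 2213 CPM on HFD. In peritumoral fat it was 235, 384, 325 and 361 CPM on Chow and 1536, 879, 1098 and 1290 CPM on HFD. All HFD libraries were above all Chow libraries, and the 3 Chow groups overlapped one another. The log2 fold change was 2.17 ± 0.13 (SE, n = 4 against 4, edgeR adjusted p = 1.12e-06) in no-tumor fat, 2.54 ± 0.17 (edgeR adjusted p = 2.3e-06) in contralateral fat and 1.80 ± 0.21 (edgeR adjusted p = 5.49e-04) in peritumoral fat. All 15 alternative analyses of each of these comparisons also called Npr3.

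The guanylyl cyclase receptors did not rise with Npr3. Npr1, the cyclase receptor for atrial and B-type peptides, averaged 60.1 ± 6.52 CPM (SD, n = 4) in Chow no-tumor fat and 52.9 ± 5.90 CPM in HFD no-tumor fat, with overlapping libraries. This difference did not pass the main test (log2 fold change -0.21 ± 0.09, SE, edgeR adjusted p = 0.121), but 3 of 15 alternative analyses, limma voom among them, called Npr1 lower on HFD. In contralateral fat Npr1 fell on HFD by 0.34 ± 0.08 on the log2 scale (edgeR adjusted p = 0.00568), from 61.3, 68.6, 63.0 and 51.6 CPM to 52.3, 44.6, 49.9 and 50.8 CPM. The single Chow library at 51.6 CPM lay inside the HFD range, and the call was lost when all 24 libraries shared 1 fit (adjusted p = 0.103). Npr2, the cyclase receptor for the C-type peptide, averaged 57.7 ± 6.81 CPM on Chow and 58.7 ± 4.04 CPM on HFD in no-tumor fat, and 55.7 ± 2.58 and 56.0 ± 2.32 CPM in contralateral fat. In peritumoral fat both averaged lower on HFD, Npr1 at 42.2 ± 9.30 against 53.0 ± 11.9 CPM (log2 fold change -0.41 ± 0.20, SE, edgeR adjusted p = 0.131) and Npr2 at 35.2 ± 7.03 against 45.4 ± 10.3 CPM (-0.45 ± 0.19, edgeR adjusted p = 0.09), and their libraries overlapped. Npr2 did not pass the main test between diets at any of the 3 positions, but in peritumoral fat it was called lower on HFD in 5 of 15 alternative analyses, among them limma voom and the fit without HFD replicate 1 (adjusted p from 0.0212 to 0.227 over the 15), and Npr1 in 1 of 15. Exons of Npr1, Npr2 and Adora1 overlap those of Gm16048, Gm12473 and Mybph on the opposite strand by 559, 266 and 661 bases. Which strand the counting used is not stated in the labels or notes, so reads from these stretches cannot be assigned, although the 3 neighbours reached at most 0.886, 4.55 and 2.78 CPM.

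The balance of clearance to cyclase receptor followed from these levels. Per kilobase, Npr3 exceeded Npr1 by 4.55 times in Chow no-tumor fat, 3.73 times in Chow contralateral fat and 4.28 times in Chow peritumoral fat. On HFD the ratio was 24.2 in no-tumor, 28.1 in contralateral and 19.6 in peritumoral fat. The highest Chow library of any position had a ratio of 6.98 and the lowest HFD library one of 14.5, so the diets did not overlap. Npr3 to Npr2 gave 3.98 to 4.87 on Chow and 21.2 to 24.2 on HFD as group means. Because Npr3 is in the numerator of each, these ratios add no separate evidence of its difference.

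**Figure D3:**
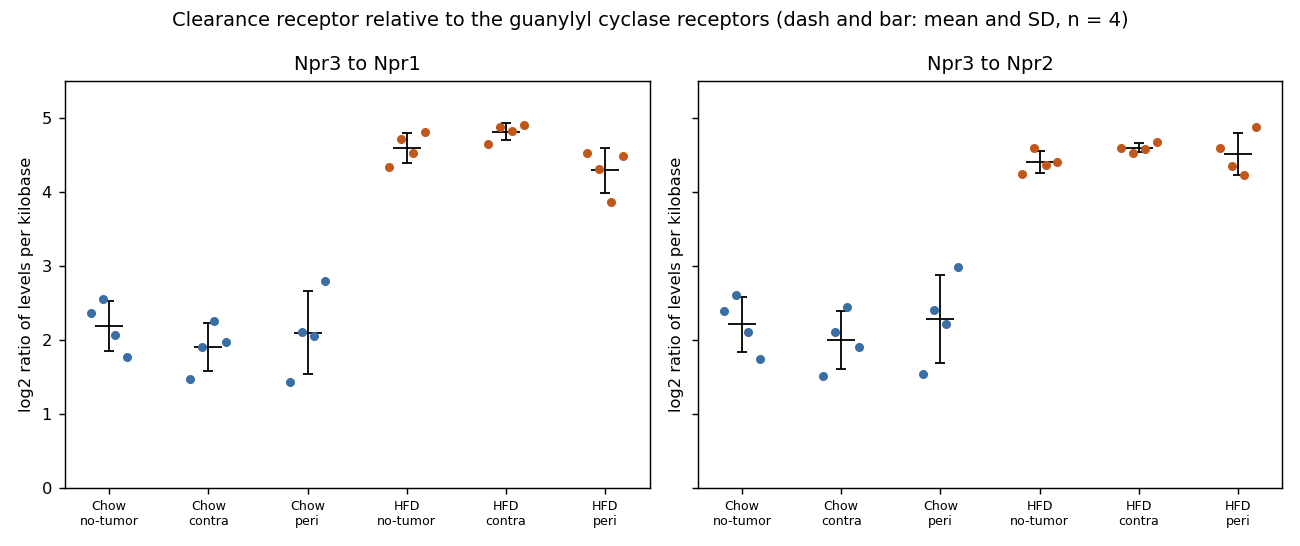
Log2 ratio of Npr3 to Npr1 and of Npr3 to Npr2 in levels per kilobase (vertical axis) by group (horizontal axis), 1 point per library, with mean and SD of 4 libraries. Group means of Npr3 to Npr1 lie between 1.90 and 2.18 on Chow and between 4.29 and 4.81 on HFD.

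Ptger3, the inhibitory prostaglandin receptor, had the next largest rise on HFD after Npr3. In no-tumor fat it measured 21.7, 44.9, 17.3 and 19.1 CPM on Chow and 58.2, 68.5, 69.9 and 67.5 CPM on HFD. In contralateral fat it measured 15.5, 20.6, 23.2 and 16.7 CPM on Chow and 57.5, 68.0, 57.2 and 78.5 CPM on HFD. In peritumoral fat it measured 13.4, 19.8, 14.6 and 21.5 CPM on Chow and 45.2, 23.6, 23.2 and 40.8 CPM on HFD. The groups did not overlap at any position, but in peritumoral fat the 2 lowest HFD libraries were just above the highest Chow library. The log2 fold change was 1.34 ± 0.31 (SE, edgeR adjusted p = 0.02) in no-tumor fat, 1.75 ± 0.15 (1.68e-05) in contralateral fat and 0.87 ± 0.25 (0.0255) in peritumoral fat. The no-tumor call was lost without Chow replicate 1 or without HFD replicate 2 or 3, and the peritumoral call without Chow replicate 1 or 3 or HFD replicate 4, with adjusted p up to 0.0593 and 0.0755.

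Adora1, the receptor through which adenosine restrains lipolysis, followed the same order of diets. In no-tumor fat it measured 40.8, 52.9, 42.1 and 38.4 CPM on Chow and 76.2, 117, 96.9 and 104 CPM on HFD. In contralateral fat it measured 48.6, 37.8, 60.2 and 45.1 CPM on Chow and 81.4, 78.2, 87.0 and 109 CPM on HFD. The diets did not overlap at these 2 positions, and the log2 fold change was 1.15 ± 0.14 (SE, edgeR adjusted p = 4.11e-04) in no-tumor and 0.85 ± 0.15 (0.0018) in contralateral fat. In peritumoral fat Adora1 averaged 47.2 ± 12.8 CPM on Chow and 63.5 ± 17.5 CPM on HFD (SD, n = 4), the libraries overlapped, and the difference did not pass the test (0.35 ± 0.24, edgeR adjusted p = 0.29).

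Hcar1, through which lactate inhibits lipolysis, went the other way in no-tumor fat. It measured 50.2, 95.9, 63.9 and 71.9 CPM on Chow and 39.6, 43.6, 49.0 and 37.4 CPM on HFD, which did not overlap. It fell by 0.76 ± 0.19 on the log2 scale (SE, edgeR adjusted p = 0.0226). The call was lost without the low-count filter and without Chow replicate 4 or HFD replicate 1, 2 or 4, with adjusted p up to 0.0671. In contralateral fat the means were 53.8 ± 3.23 CPM on Chow and 45.1 ± 14.1 CPM on HFD, and in peritumoral fat 49.9 ± 3.08 and 35.75 ± 12.95 CPM. Neither difference passed the edgeR test (adjusted p = 0.269 and 0.0624), and the libraries overlapped. In peritumoral fat 4 of 15 alternative analyses called Hcar1 lower on HFD, among them DESeq2, limma voom and the fit without HFD replicate 1 (adjusted p from 7.26e-04 to 0.136 over the 15).

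Adra2a, the inhibitory adrenergic receptor, had means between 1.57 and 2.59 CPM in the 6 groups, and all neighbours in the order of the groups overlapped. In contralateral fat it passed the test as lower on HFD (log2 fold change -0.56 ± 0.21, SE, edgeR adjusted p = 0.0454), with 1.76, 2.61, 2.18 and 2.50 CPM on Chow and 1.82, 1.3, 1.66 and 1.497 CPM on HFD. One Chow library lay inside the HFD range, and 11 of 15 alternative analyses lost the call, with adjusted p from 0.0301 to 0.168 over all 15; among left-out libraries, the call was kept without Chow or HFD replicate 1 and lost without any other.

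Adrb3, the main β-adrenergic receptor of mouse fat cells, had lower means on HFD at each position, but no diet difference passed the main test. In no-tumor fat it measured 143, 227, 137 and 143 CPM on Chow and 119, 88.7, 146 and 97.9 CPM on HFD (log2 fold change -0.55 ± 0.22, SE, edgeR adjusted p = 0.109). In contralateral fat it measured 165, 153, 178 and 164 CPM on Chow and 165, 156, 91.7 and 52.6 CPM on HFD (-0.54 ± 0.35, edgeR adjusted p = 0.24). In peritumoral fat it measured 138, 138, 156 and 135 CPM on Chow and 137, 64.1, 55.4 and 34.0 CPM on HFD (-1.03 ± 0.37, edgeR adjusted p = 0.0596). The diets overlapped at each position, because 1 or 2 HFD libraries were as high as the Chow libraries. In contralateral and peritumoral fat the spread of Adrb3 was wide on HFD, with a coefficient of variation of 46.1% and 61.7% against 6.14% and 6.68% on Chow. In no-tumor fat it was not wider on HFD, at 22.7% against 26.5% on Chow. In peritumoral fat Adrb3 passed in 5 of 15 alternative analyses, among them DESeq2 and the fit without HFD replicate 1 (adjusted p from 7.85e-04 to 0.169 over the 15). In no-tumor fat it passed in 1 of 15, DESeq2 (adjusted p = 0.0176), and in contralateral fat in 0 of 15. Adrb1, the other cyclic AMP-raising receptor measured here, did not pass between diets at any position, with log2 fold changes of 0.18 ± 0.12, -0.23 ± 0.15 and -0.48 ± 0.25 (SE).

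Adrb3 and Hcar1 had their highest level in the same library in 4 of the 6 groups. Adrb3 with Ptger3 and Adra2a with Npr1 also reached 4 of 6, the highest counts among the 36 pairs of receptor genes, whose median was 2 of 6. These 3 pairs were not equally alike. The Pearson correlation of log2 CPM within groups was 0.8 for Adrb3 and Hcar1, 0.17 for Adrb3 and Ptger3, and -0.19 for Adra2a and Npr1. The highest of the 36 pairs was 0.85, for Npr1 and Npr2, which shared their highest library in 3 of 6 groups. Chow no-tumor replicate 2 had the highest Adrb3, Adra2a, Hcar1, Ptger3 and Adora1 of its group and the lowest Adrb1, Npr1 and Npr2. HFD peritumoral replicate 1 had the highest Adrb3, Adrb1, Npr2, Npr3, Hcar1 and Ptger3 of its group. That library also had the highest summed level of 10 mature adipocyte markers in its group, 21910 CPM against 11520 to 14600 CPM in the other 3, and the part of this in the receptor values was not tested.

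**Figure D4:**
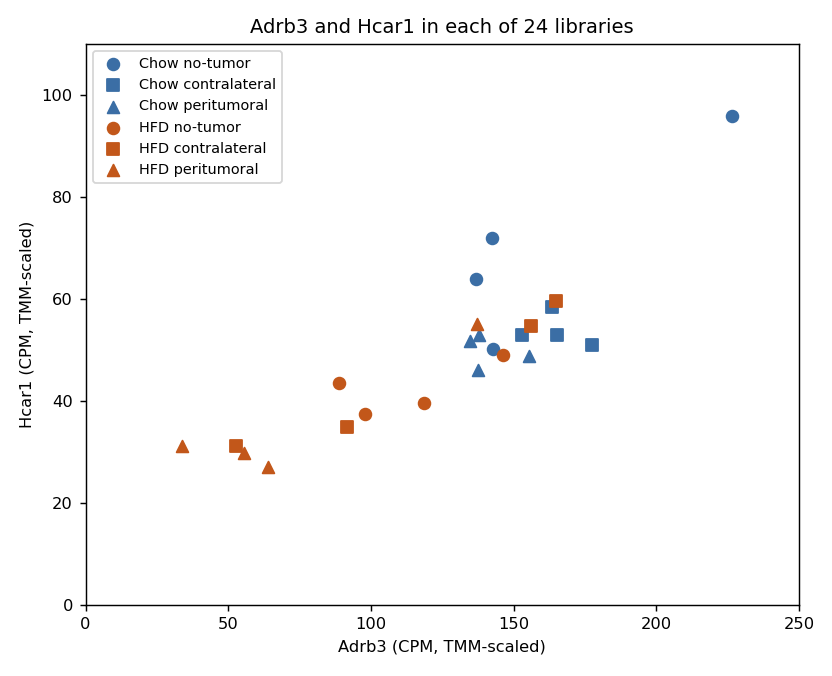
Hcar1 (vertical axis, CPM) against Adrb3 (horizontal axis, CPM) in each of the 24 libraries, coloured by diet and shaped by position. The Chow no-tumor library at 227 CPM of Adrb3 and 95.9 CPM of Hcar1 lies apart at the upper right. The 8 libraries with the lowest Adrb3 are all HFD, while 4 HFD libraries, at 137 to 165 CPM of Adrb3, lie among the Chow ones.

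The position of the fat relative to the tumor was compared within each diet. Titles of all peritumoral libraries carry the letter L, and those of all contralateral and no-tumor libraries carry R. Peritumoral position and this letter therefore cannot be told apart. On HFD 4 of 9 receptor genes passed the test between peritumoral and contralateral fat, where 29.5% of 15627 genes passed, and all 4 were lower in peritumoral fat, as were 12.7% of all genes. Libraries of 4 of 9, Npr2, Npr3, Ptger3 and Adora1, did not overlap, against 31.3% of all genes. Ptger3 fell by 0.99 ± 0.22 on the log2 scale (SE, n = 4 against 4, edgeR adjusted p = 0.0127), Npr3 by 0.76 ± 0.17 (0.0121) and Npr2 by 0.68 ± 0.13 (0.00729), and each of these 3 was called in all 15 alternative analyses. Npr2 measured 42.9, 28.95, 39.4 and 29.5 CPM in peritumoral against 53.0, 55.3, 57.2 and 58.3 CPM in contralateral fat. Adrb1 fell by 0.69 ± 0.22 (edgeR adjusted p = 0.0424), from 4.43, 4.70, 4.93 and 3.56 CPM to 3.75, 2.76, 2.50 and 1.94 CPM; 8 of the 15 alternatives lost this call, including the fits without any 1 library other than HFD peritumoral replicate 1, with adjusted p up to 0.11. Adora1 (-0.50 ± 0.20, edgeR adjusted p = 0.0854), Adrb3 (-0.68 ± 0.45, 0.265), Hcar1 (-0.34 ± 0.27, 0.355), Npr1 (-0.24 ± 0.15, 0.24) and Adra2a (0.26 ± 0.24, 0.42) did not pass. Adrb3 passed in 3 of the 15 alternatives, limma voom and the fit without HFD peritumoral replicate 1 (log2 fold change -1.20) among them (adjusted p from 0.0111 to 0.513 over the 15), and Adora1 in 1 of 15 (0.0203 to 0.21). The HFD contralateral libraries also serve as one side of the diet comparison in contralateral fat, so the higher Npr3 there and its lower level near the tumor share those 4 libraries.

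In bulk tissue, fewer cells of a type and less RNA per cell cannot be told apart. In this comparison all 10 mature adipocyte markers, Adipoq among them (log2 fold change -0.74 ± 0.18, SE, edgeR adjusted p = 0.0159), were lower in peritumoral fat, with a median of -0.82, and 6 of 8 macrophage markers were higher, with a median of 0.93, against a median of -0.02 over all genes tested. The summed macrophage markers ranged from 898 to 1165 CPM in contralateral and from 1598 to 2520 CPM in peritumoral fat, and no marker of either list was at 0. When the mean log2 level of the adipocyte markers was subtracted in each library, the difference of Npr3 was 0.08, of Npr2 0.16, of Adrb1 0.17, of Adrb3 0.13 and of Ptger3 -0.18, each with overlapping libraries. Adra2a and Npr1 then stood 1.08 and 0.60 higher in peritumoral fat and Hcar1 0.52 higher, with no overlap. On this relative scale Npr3, Npr2 and Adrb1 fell no more near the tumor than the mean of the adipocyte markers, and Ptger3 lay 0.18 further down; no test was made.

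The same subtraction left the diet difference of Npr3 in place. Relative to the adipocyte markers Npr3 was 2.07, 2.17 and 2.10 higher on HFD on the log2 scale in no-tumor, contralateral and peritumoral fat, and Ptger3 was 1.31, 1.35 and 1.12 higher, with no overlap of libraries. Adora1 was 1.01 higher in no-tumor fat without overlap, and 0.46 and 0.65 higher with overlap in the other positions. Adrb3, whose CPM overlapped between diets, was 0.67, 1.08 and 0.92 lower on HFD relative to the markers, with no overlap at any position. Hcar1 was 0.85, 0.75 and 0.31 lower, also without overlap. In contralateral fat Adrb1 (-0.63), Adra2a (-0.92), Npr1 (-0.73) and Npr2 (-0.43) were lower on HFD without overlap as well. At the other positions these genes overlapped. The share of all genes without overlap on this relative scale was not computed, here or for the tumor side, so the separation is not read as particular to any receptor gene. The adipocyte marker mean itself differed between diets by 0.15, 0.43 and -0.22. These relative values describe the libraries and carry no p-value.

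**Figure D5:**
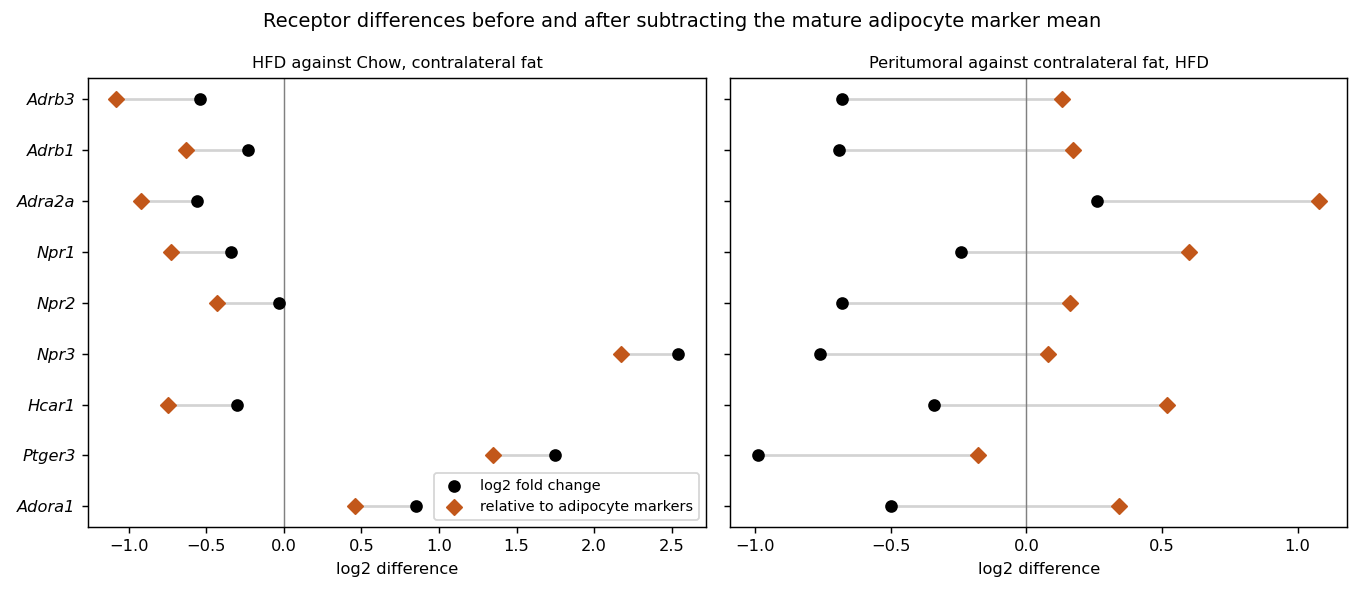
Log2 differences (horizontal axis) of the 9 receptor genes (vertical axis) in 2 comparisons, as edgeR log2 fold changes (circles) and after subtracting the mean of the mature adipocyte markers (diamonds). In the peritumoral comparison Npr3 moves from -0.76 to 0.08, and in the contralateral diet comparison from 2.54 to 2.17.

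On Chow no receptor gene passed between peritumoral and contralateral fat by edgeR, where 0% of the 16057 genes tested passed. At an unadjusted p below 0.05 there were 2 of 9, Adrb3 (-0.20 ± 0.08, SE) and Adrb1 (-0.45 ± 0.18), against 1381 of the 16057 genes. DESeq2 and limma also called 0 of 9, where they called 19 of 14786 and 0 of 16057 genes. Adrb1 measured 3, 4.05, 3.19 and 4.44 CPM in peritumoral and 4.55, 5.89, 4.98 and 4.73 CPM in contralateral fat, the 1 receptor gene of 9 without overlap, against 5.19% of all genes. Npr3 differed by -0.03 ± 0.20 and Ptger3 by -0.12 ± 0.17. Whether the tumor-side difference depended on diet was tested as an interaction over 16 libraries. No receptor gene passed by edgeR, with 0% of 16859 genes passing. DESeq2 and limma called 0 of 9 as well, where 727 of 13259 and 1472 of 16859 genes passed. At an unadjusted p below 0.05 edgeR had 2 of 9, Ptger3 (interaction -0.83 ± 0.31, SE, edgeR adjusted p = 0.176) and Npr3 (-0.70 ± 0.27, 0.178), against 3349 of the 16859 genes. Ptger3 and Npr3 both passed without HFD peritumoral replicate 1, the library with the highest Ptger3 and Npr3 of its group (edgeR adjusted p = 0.0418 and 0.049). In that fit 1911 of 16996 genes passed, so the gain was not particular to these receptor genes. Passing on HFD and not on Chow therefore does not show a diet dependence of the tumor-side difference.

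Contralateral fat was compared with fat of no-tumor mice. On Chow 0 of 9 receptor genes passed by edgeR, where 7.95% of 15946 genes did. None of the 9 had an unadjusted p below 0.05, against 4443 of the 15946 genes. On HFD 0 of 9 passed, where 6.08% of 15718 genes did. Only Adrb1 had an unadjusted p below 0.05 (-0.41 ± 0.14, SE, edgeR adjusted p = 0.102), against 3633 of the 15718 genes. DESeq2 and limma called 0 of 9 in both. Over all genes DESeq2 called 1567 of 15302 on Chow and 1292 of 15107 on HFD, and limma 1718 of 15946 and 1291 of 15718. Without Chow no-tumor replicate 2, Adrb3 passed on Chow as higher in contralateral fat (log2 fold change 0.24, adjusted p = 0.028). In that fit 1986 of 16108 genes were called. The interaction of diet with tumor bearing called 0 of 9 by edgeR, DESeq2 and limma. Of all genes, 19.9% of 16676 passed by edgeR, 3523 of 16656 by DESeq2 and 4063 of 16676 by limma. By edgeR, Adrb1 alone had an unadjusted p below 0.05 (-0.40 ± 0.18), against 5770 of the 16676 genes.

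The order of the groups was taken for each gene. Npr3 ran from HFD contralateral (2012 ± 148 CPM, SD, n = 4) and HFD no-tumor (1842 ± 79.4), which overlapped, to HFD peritumoral (1201 ± 279.7) and then to the 3 Chow groups (399.9 ± 80.5 to 327 ± 65.7), with gaps above and below the HFD peritumoral group. Ptger3 had HFD no-tumor and HFD contralateral fat at the top, separated from the rest, while HFD peritumoral and the Chow groups overlapped as neighbours in that order. Adora1 had the same 2 groups at the top, above all Chow libraries, but its lowest HFD no-tumor library (76.2 CPM) lay below the highest HFD peritumoral one (78.0 CPM). For Adrb3, Adrb1, Adra2a, Npr1, Npr2 and Hcar1 each group overlapped the next. HFD peritumoral fat was lowest for Adrb3, Adrb1, Npr1, Npr2 and Hcar1, at 72.6, 2.74, 42.2, 35.2 and 35.8 CPM. Adrb1 was highest in HFD no-tumor fat at 5.82 ± 0.595 CPM.

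Other parts of the pathway were read from fixed lists. Of 21 other receptors tied to lipolysis, 18 were tested in no-tumor fat, with 8 higher and 3 lower on HFD (median log2 fold change 0.37 against -0.02 over all genes). Of all genes tested, 24.9% were called there, 49.3% in contralateral and 33.6% in peritumoral fat. Sucnr1, an inhibitory receptor for succinate, rose by 1.37 ± 0.09 (SE, edgeR adjusted p = 1.25e-06) and Mc2r, the corticotropin receptor, by 0.69 ± 0.08, whereas Hcar2, the niacin and ketone body receptor, fell by 0.88 ± 0.15. In contralateral fat 5 of 19 were higher and none lower, including Sucnr1 (1.89 ± 0.11) and Tshr, the thyrotropin receptor (1.11 ± 0.06). In peritumoral fat 4 of 19 were higher, including Sucnr1 (1.16 ± 0.18) and Mc2r (0.96 ± 0.17), and 2 lower, the neuropeptide Y receptor gene Npy1r (-0.67 ± 0.23) and the insulin receptor gene Insr (-0.52 ± 0.12). Near the tumor on HFD 3 of 19 were higher and 7 lower than in contralateral fat, against 29.5% of all genes called. Adra1a, an α1-adrenergic receptor, fell there by 0.94 ± 0.15 and Tshr by 0.70 ± 0.15, while Ptger4, a stimulatory prostaglandin receptor, rose by 0.49 ± 0.13 and Hcar2 by 0.51 ± 0.16.

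Among 18 G proteins, adenylyl cyclases and desensitizers, 17 were tested. On HFD 4 were higher and 1 lower in no-tumor fat, 9 higher and 3 lower in contralateral fat, and 4 higher and 2 lower in peritumoral fat, against 24.9%, 49.3% and 33.6% of all genes called in either direction. Gnai1, an inhibitory G protein subunit, rose by 0.80 ± 0.07 in contralateral fat (SE, edgeR adjusted p = 5.08e-06), and Grk3, a receptor kinase, fell by 0.69 ± 0.11 there and by 0.93 ± 0.14 in peritumoral fat. Arrb1, an arrestin, rose by 0.52 ± 0.08 in no-tumor fat. Near the tumor on HFD 5 were higher and 5 lower (29.5% of all genes were called), with Arrb2 up by 0.67 ± 0.07 and the cyclase gene Adcy3 down by 0.41 ± 0.07. Gnas, the stimulatory subunit, had group means of 5.69 to 13.7 CPM and passed only near the tumor on HFD (-0.82 ± 0.16, edgeR adjusted p = 0.00715) among these 4 comparisons; its locus holds overlapping transcripts, so its counts are uncertain.

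Of 22 kinase and phosphodiesterase genes 21 were in the matrix and tested. On HFD 4 were higher and 1 lower in no-tumor fat, 5 higher and 5 lower in contralateral fat, and 3 higher and 7 lower in peritumoral fat, against 24.9%, 49.3% and 33.6% of all genes; the 10 of 21 in contralateral fat are a share close to the background. Pde3a, which degrades cyclic AMP, fell by 1.17 ± 0.10 in no-tumor (SE, edgeR adjusted p = 8.88e-06) and 1.09 ± 0.12 in contralateral fat, and the cyclic AMP-specific Pde7a rose by 1.06 ± 0.07 in no-tumor fat. Pde3b, the enzyme through which insulin restrains lipolysis, fell by 0.92 ± 0.21 in peritumoral fat and did not pass at the other positions (-0.29 ± 0.11 and -0.15 ± 0.11). Prkar2b, the main regulatory subunit of protein kinase A in fat, rose by 0.38 ± 0.10 in no-tumor and 0.81 ± 0.10 in contralateral fat, and Prkaca, a catalytic subunit, by 0.62 ± 0.07 in contralateral fat. Prkg1, the cyclic GMP-dependent kinase downstream of Npr1, fell by 0.95 ± 0.10 in contralateral and 1.21 ± 0.16 in peritumoral fat. Near the tumor on HFD 2 were higher and 6 lower (29.5% of all genes were called), with Prkar2b at -0.85 ± 0.18, Pde3b at -0.83 ± 0.21 and Prkaca at -0.40 ± 0.11.

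All 11 lipolysis effectors were tested. On HFD 4 were higher and 0 lower in no-tumor fat, 8 higher and 0 lower in contralateral fat, and 3 higher and 1 lower in peritumoral fat, where 24.9%, 49.3% and 33.6% of all genes were called. Mgll, the monoglyceride lipase, rose by 0.82 ± 0.10 (SE, edgeR adjusted p = 1.32e-04) in no-tumor and 1.11 ± 0.09 in contralateral fat, and the glycerol channel gene Aqp7 by 0.99 ± 0.07 in no-tumor fat. The lipases Pnpla2 and Lipe and the droplet coat gene Plin1 rose in contralateral fat by 0.40 ± 0.07, 0.54 ± 0.07 and 0.48 ± 0.09, and did not pass in no-tumor (-0.20 ± 0.10, 0.13 ± 0.08 and 0.08 ± 0.09) or peritumoral fat (-0.22 ± 0.16, -0.07 ± 0.18 and -0.19 ± 0.19). Near the tumor on HFD, where 29.5% of all genes were called, 8 were lower, with Pnpla2 at -0.75 ± 0.15, Lipe at -0.81 ± 0.17, Plin1 at -0.95 ± 0.20 and the lipase inhibitor gene G0s2 at -0.70 ± 0.12, and 1 was higher, the lipase inhibitor gene Hilpda (1.27 ± 0.22). The median of the list there was -0.73 and that of the adipocyte markers -0.82.

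The genes that make or remove the ligands numbered 30, of which 24 or 25 were tested. On HFD 8 were higher and 1 lower in no-tumor fat, 11 higher and 3 lower in contralateral fat, and 7 higher and 1 lower in peritumoral fat, and the background shares were again 24.9%, 49.3% and 33.6%, close to the 8 called in peritumoral fat. Hpgd, which breaks down prostaglandins, rose by 1.27 ± 0.08 (SE, edgeR adjusted p = 8.99e-07) in no-tumor and 1.24 ± 0.19 in peritumoral fat. Near the tumor on HFD 9 were higher and 7 lower than in contralateral fat, against 29.5% of all genes. There the lactate exporter gene Slc16a3 rose by 2.93 ± 0.54 (edgeR adjusted p = 0.00571), from 4.91 to 37.8 CPM, the adenosine-forming Nt5e by 1.04 ± 0.25, the prostaglandin E synthase gene Ptges by 0.86 ± 0.27 and the lactate dehydrogenase gene Ldha by 0.36 ± 0.11. Nppa and Nppc, which encode the atrial and C-type peptides, had group means of at most 0.108 CPM and were not tested. The 8 β-adrenergic target genes had 0 higher and 3 lower of 6 tested in no-tumor fat, among them Nr4a1, an immediate early gene (-1.11 ± 0.20), 1 lower in contralateral fat, the droplet protein gene Cidea (-0.98 ± 0.28), and 3 lower in peritumoral fat, with the coactivator gene Ppargc1a at -1.35 ± 0.28, against the same background shares. Ucp1, the brown fat uncoupler, stayed at or below 0.710 CPM as a group mean and was not tested.

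The genes with the most similar pattern over the 24 libraries were taken by Pearson correlation of log2 CPM among 10706 genes of at least 5 CPM; the points share library depth and the diet groups, and no p is given. Npr3 was closest to Grb14, an adaptor that binds the insulin receptor, and to Bmp3, a bone morphogenetic protein, both at 0.99. Grb14 averaged 9.501 ± 2.002 CPM in Chow no-tumor and 38.9 ± 3.97 CPM in HFD no-tumor fat. Ptger3 was closest to Mmd (0.98) and Aplp2 (0.97), and Adora1 to the zinc finger gene Zfp423 and to Hacd2, an enzyme of fatty acid elongation, both at 0.96. Adrb3 was closest to Celsr2 and Fam13a (both 0.89), and Celsr2 was lowest in HFD peritumoral fat like Adrb3, at 35.7 ± 14.1 CPM. Hcar1 was closest to Ednra, an endothelin receptor, and Pard6g (both 0.88), Npr1 to Coro2b (0.93) and Reck (0.89), Npr2 to Smim1 and Mtss1l (both 0.93), Adrb1 to the clock gene Dbp (0.87) and Spint2 (0.85), and Adra2a, with the fewest counts, to Fgg (0.70) and Arfrp1 (0.67). The partner depends on the measure: by Spearman correlation the closest gene was the same for 1 receptor, Npr1, and another for 8, among them Palmd for Npr3 (0.97), Optn for Ptger3 and Srebf1 for Adrb3 (0.87).

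Total counts per library ranged from 9130125 to 16641785 on Chow and from 14979723 to 18204747 on HFD. Fat cell identity was plain in each group, since the 10 mature adipocyte markers summed to 11520 to 27630 CPM. Summed skeletal muscle markers were 4955, 3494, 79.0 and 2812 CPM in the Chow contralateral libraries. They reached 2709 CPM in Chow peritumoral and 1071 CPM in Chow no-tumor fat, and were at most 272.9 CPM on HFD. In contralateral fat 7 of 8 muscle genes were called lower on HFD. Mammary epithelial markers were lower on HFD in 5, 8 and 7 of 8 genes at the 3 positions, and endothelial markers were higher on HFD in 9 of 10 genes in no-tumor fat. B and T cell markers summed to at most 117 CPM. The part of these in the receptor differences was not tested, apart from leaving the muscle, mitochondrial and ribosomal RNA genes together out of the library sizes, which changed no receptor call in the diet comparisons.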

How the data were processed

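Whole-number read counts per gene, as deposited by the authors in 1 matrix of 24 libraries with exon coordinates per gene, were used without change. TopHat, DESeq and the mm10 build are named per the submitters' processing notes, with versions, aligner settings and strand not given in the sources used here. Gene symbols came from the annotation tables, and 1410 of 39017 genes had none. Each comparison was fitted on its own 8 libraries (16 for interactions) with edgeR 4.0.16 in R 4.3.3: genes kept by filterByExpr (minimum count 10, minimum total 15), TMM factors, robust quasi-likelihood F test, Benjamini-Hochberg adjustment over all genes, threshold 0.05. CPM used TMM factors over all 24 libraries, and RPKM is CPM per kilobase of deposited exon bases. SE is the absolute log2 fold change divided by the square root of F. Alternatives were DESeq2 1.42.0, RLE factors, no filter, 1 fit of all 24 libraries, limma 3.58.1 voom with quality weights, other library sizes, a replicate block and each library left out. The fits were tested on simulated data with 100 planted changes of each size. For diet in peritumoral fat these lay among 15919 genes, a far smaller share than the 33.6% called in the real data. The Benjamini-Hochberg adjustment is stricter where fewer genes differ, so recovery in such real fits may not be the same. For diet in peritumoral fat 52% of 2-fold and 7% of 1.5-fold changes were recovered, and for diet by tumor side 46% and 8%. The other comparisons recovered 59% to 84% and 29% to 63%. A receptor gene that did not pass may therefore still differ.

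The 9 receptors are named everywhere. From each pathway list and comparison, up to 2 higher and 2 lower called genes with the lowest adjusted p and at least 5 CPM were to be named. To these the rule added core genes of the pathway (Pnpla2, Lipe, Plin1, Pde3b, Gnas, Prkar2b, Prkaca, Nppa, Nppc, Nt5e, Ptges, Ldha, Ucp1 and Adipoq) and the 2 genes most like each receptor. The text does not give each of these genes in each comparison, so the absence of a gene says nothing about its test. The receptors and all lists were chosen with earlier results of these data known. Pde2a was not analysed here. A gene of the ligand list that this rule names is counted with its list but not reported here. On raw library totals, without TMM factors, no pair of replicates agreed within sampling noise: median chi-square per gene was 0.98 to 9.64 over 36 pairs of replicates, against 0.455 for sampling alone. Differences in TMM factor between replicates can raise these values, and their part was not tested. Replicate counts of 15 to 48 for Adra2a limit its precision most.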

Additional observations from a re-analysis of the deposited data

Results flagged for a closer look

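In 4 of the 54 groups of 4 libraries checked, 6 groups for each of the 9 receptor genes, 1 library stood apart by Dixon's 95% criterion; chance flags about 1 in 20 groups. Adrb3 was 226.5 CPM in Chow no-tumor replicate 2 against 136.9 to 142.9 CPM in the other 3. Ptger3 was 44.89 CPM in the same library against 17.34 to 21.69 CPM. Adrb3 was 155.5 CPM in Chow peritumoral replicate 3 against 134.9 to 137.8 CPM. Hcar1 was 55.01 CPM in HFD peritumoral replicate 1 against 27.01 to 31.19 CPM.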

How the results depend on the processing

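Across the 9 comparisons, 534 receptor values kept their sign and their side of the threshold under the alternatives that use all libraries, 15 gained a call, 8 lost one and 9 changed sign; with 1 library left out the numbers were 720, 11, 23 and 38. The count of receptor genes called, 2 for diet in peritumoral fat, became 5 with limma voom, 4 when all 24 libraries shared 1 fit and 4 by DESeq2, and 1 to 5 with 1 library left out. The calls over all genes moved too. They were 5353 of 15919 in the main fit, 7148 of 15919 with limma voom, 8799 of 17201 with all 24 libraries and 5890 of 15912 by DESeq2. With 1 library left out they ran from 3102 to 6003. In contralateral fat the count fell from 5 to 3 with all 24 libraries in 1 fit, where the calls over all genes were 7847 of 15913 and 7498 of 17201. Leaving out 1 library gave 2 to 5 for diet in no-tumor fat, 2 being without HFD no-tumor replicate 2, 0 to 1 on Chow for contralateral against no-tumor fat, and 0 to 2 for diet by tumor side. For diet in no-tumor fat, 2990 of 16055 genes were called where the count was 2 and 4592 of 16087 where it was 5. In the fit with 1 receptor gene called on Chow, 1986 of 16108 genes passed. In the fit with 2 for diet by tumor side, 1911 of 16996 genes passed. The cause of these changes was not tested.

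By the criterion that each same-numbered pair correlates above 0.1 in its deviations, replicate numbers did not pair the libraries: correlations ran from -0.37 to 0.32 over all comparisons, and were -0.11, 0.11, 0.20 and 0.32 for peritumoral against contralateral fat on HFD. With the replicate block the count was 5 for diet in peritumoral fat, 4 in no-tumor and 4 in contralateral fat, and 6 for peritumoral against contralateral fat on HFD, where the block added Adrb3 (adjusted p = 0.0111) and Adora1 (0.0203). Over all genes, the calls with the block were 5277 of 15919, 3886 of 15827, 7522 of 15913 and 5144 of 15627 in these 4 comparisons. The block turned the sign of Gnas for diet in contralateral fat (-0.01), of Adrb3 for contralateral against no-tumor fat on HFD (-0.07) and of Adrb3 for diet by tumor bearing (-0.08).

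The values that changed sign were log2 fold changes near 0 that had not passed the test. Without the low-count filter these were Npr2 for diet in contralateral fat (0.02), Adrb1 on Chow for contralateral against no-tumor fat (-0.01) and Npr2 for diet by tumor bearing (0.01). With all 24 libraries in 1 fit they were Npr2 (0.01) and Adrb1 (-0.01) in the same comparisons, and with limma voom Adrb1 there (-0.02) and Adrb3 for diet by tumor bearing (-0.08). With 1 library left out, the ranges for diet were -0.07 to 0.12 for Gnas and -0.06 to 0.01 for Npr2 in contralateral fat, -0.04 to 0.41 for Adra2a and -0.32 to 0.01 for Ldha in no-tumor fat, and -0.25 to 0.04 for Lipe, -0.10 to 0.27 for Nt5e and -0.12 to 0.19 for Prkar2b in peritumoral fat. For contralateral against no-tumor fat they were -0.07 to 0.05 for Adrb1, -0.03 to 0.24 for Adrb3, -0.04 to 0.11 for Npr1 and -0.12 to 0.01 for Npr2 on Chow, and -0.45 to 0.01 for Adra2a, -0.19 to 0.28 for Adrb3, -0.09 to 0.22 for Hcar1 and -0.13 to 0.03 for Ptger3 on HFD. For peritumoral against contralateral fat on Chow the range was -0.16 to 0.12 for Npr3. For diet by tumor bearing the ranges were -0.22 to 0.24 for Adrb3 and -0.08 to 0.05 for Npr2, and for diet by tumor side -0.10 to 0.22 for Adra2a and -0.19 to 0.10 for Npr1.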
